A study of Mus musculus with 1824 samples.

Results

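The 10 genes described here encode proteins of the endothelial cell surface and its junctions: the receptors *Kdr*, *Flt1*, *Flt4*, *Tek*, *Tie1* and *Eng*, the junction proteins *Cdh5*, *Pecam1* and *Esam*, and the secreted factor *Egfl7*. They were chosen by symbol, with earlier results of these data known. Each matched 1 Ensembl identifier among the 55487 genes of the count table. Their RNA was followed by plate, by stage, by type of cell and by the level of *Etv2* in 1649 of 1824 single cells, those with at least 100000 reads. Levels are reads of a gene scaled to 1000000 reads of the pooled cells (CPM). A gene was called detected in a cell that held at least 1 read of it after every cell had been thinned at random to 100000 reads.

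Endothelial cells line the blood vessels and arise in the early embryo from mesoderm that carries KDR, the main receptor for VEGF-A. The transcription factor ETV2 acts briefly in these progenitors and is needed for the endothelial and blood lineages to form, and other factors of its family (the ETS family, such as FLI1 and ERG) act in endothelial cells later. KDR is therefore known as a marker of progenitors as well as of vessels, while VE-cadherin (the product of *Cdh5*) and TIE1 are better known from cells already committed to endothelium.

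The cells came from chimaeric mouse embryos at embryonic day 7.5 (E7.5, 57.97% of the cells, on 11 plates) and 8.5 (E8.5, 42.03%, on 8 plates), made to follow how cells without TET enzymes contribute to blood and endothelium. *Tet* triple-knockout (*Tet*-TKO) embryonic stem cells marked with H2B-tdTomato had been injected into C57BL/6J blastocysts, which CD1 recipients carried, and GEO's labels give CD1 as the strain of every cell. Live single cells were sorted after staining for KDR and CD41, and RNA was read by Smart-seq2, which counts reads from whole transcripts without molecular identifiers. The labels give every cell a GpC methylase step before lysis, whereas the study's methods also describe cells without it, and which wells were treated is not known here. The study also sequenced some cells for RNA alone and others by scNMT-seq, which reads DNA methylation and accessibility as well. The assay of each plate is not known here, so the stages may differ in assay too. Neither the tdTomato fraction nor the gate is given for a cell. *Tet*-TKO and host cells were therefore not compared, and differences of *Kdr* between plates are no finding, since KDR itself was used to sort. At E7.5, 4 plates carry the number of an embryo (1, 2, 4 and 5), 1 is named chimera plate 3 and 6 are named by a sequencing lane (lane plates 1 to 6). No animal is named at E8.5 and plates are technical units, so each stage counted as 1 sample and nothing below is a test of stage or of *Etv2* level. The median depth of the plates ran from 224956 reads per cell on lane plate 5 to 1699480 on lane plate 3. No cell shared all of its values with another, and 1 well held 0 reads.

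Promoter sequences are shown for 5 of the genes, because ETS factors bind short motifs with a GGAA core and the genes are set against *Etv2* and *Fli1* further on. RefSeq start sites (GRCm38.p6) were at hand for 7 of the 10 genes, and *Cdh5*, *Pecam1* and *Esam* had no entry. The bases upstream of each start are given in the direction of the gene, and capitals mark the ETS core AGGAAG, in either orientation, or ACAGGAA, a core of the joint FOX and ETS motif.
*Kdr* (minus strand, chr5:75978459-75978705): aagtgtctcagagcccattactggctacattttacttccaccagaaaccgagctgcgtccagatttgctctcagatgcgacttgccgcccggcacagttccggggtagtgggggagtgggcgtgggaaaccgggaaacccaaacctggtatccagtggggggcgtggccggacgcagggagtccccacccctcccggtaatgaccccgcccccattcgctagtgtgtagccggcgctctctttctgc
*Flt1* (minus strand, chr5:147726012-147726261): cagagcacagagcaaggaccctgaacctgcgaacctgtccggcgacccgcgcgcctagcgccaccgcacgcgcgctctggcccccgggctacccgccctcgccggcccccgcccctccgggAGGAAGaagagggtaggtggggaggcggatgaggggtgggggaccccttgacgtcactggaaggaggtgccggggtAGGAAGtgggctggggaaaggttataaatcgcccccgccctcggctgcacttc
*Tek* (plus strand, chr4:94739039-94739288): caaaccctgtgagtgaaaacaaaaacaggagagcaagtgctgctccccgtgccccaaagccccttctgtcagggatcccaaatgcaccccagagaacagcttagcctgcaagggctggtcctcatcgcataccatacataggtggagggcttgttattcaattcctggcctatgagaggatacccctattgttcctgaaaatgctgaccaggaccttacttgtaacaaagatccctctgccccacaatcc
*Eng* (plus strand, chr2:32646345-32646594): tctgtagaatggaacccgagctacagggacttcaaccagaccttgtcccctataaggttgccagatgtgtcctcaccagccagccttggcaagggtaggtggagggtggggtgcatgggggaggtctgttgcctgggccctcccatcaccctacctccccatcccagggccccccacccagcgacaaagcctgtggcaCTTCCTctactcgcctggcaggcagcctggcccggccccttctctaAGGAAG
*Egfl7* (plus strand, chr2:26583615-26583863): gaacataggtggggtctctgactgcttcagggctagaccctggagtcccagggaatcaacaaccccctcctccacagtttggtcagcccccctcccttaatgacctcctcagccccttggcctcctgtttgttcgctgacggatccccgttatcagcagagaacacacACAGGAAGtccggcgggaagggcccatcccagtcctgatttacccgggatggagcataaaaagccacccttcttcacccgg
The *Flt1* window held AGGAAG at 2 places, the nearer 53 bases before the start, and the *Eng* window held it 52 and 6 bases before the start. The *Egfl7* window shown is that of the middle one of its 3 starts, where ACAGGAA lay 82 bases before the start and overlapped AGGAAG at 80 bases. The first *Egfl7* window held AGGAAG at 3 places and ACAGGAA at 1, and the last held neither. The windows of *Kdr*, *Tek* and *Flt4* held none of the motifs searched. GGAA with other flanking bases, which the *Kdr* and *Tek* windows do hold, was not searched or marked. The *Tie1* window, which lay mostly in annotated exons and is not printed, held AGGAAG once, along with 1 match to ACAGGAA and 1 to the second ETS core, CGGAAG. The *Flt4* window lay in exons over its whole length. Either ETS core, on either strand, was present for 4 of the 7 genes, and in 39.2% of all 32817 windows of the same length. Taken singly, CGGAAG was in 13.6% of windows. AGGAAG was in 29.5% and ACAGGAA in 7.20%. The GATA motif AGATAA was in 9.99% of windows and in none of these genes'. The windows also differed in CpG dinucleotides, the sites of DNA methylation. There were 23 in the *Flt1* window, 16 in those of *Kdr* and *Flt4*, 7 in the *Egfl7* window shown, 6 in *Tie1*, 4 in *Eng* and 2 in *Tek*, against a median of 6 over all windows (quartiles 2 and 16). A match describes letters only, and it was not tested whether any factor binds there.

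To see which cells carried the genes, cells were clustered without them and clusters were named from lists of marker genes. All 10 genes had their highest pooled level in the haematoendothelial-like class, which held 18.4% of the cells. The share of all genes highest in this class was not counted. Its naming markers included genes that correlate with the 10, such as *Sox18* (0.86) and *Cldn5* (0.78), so the count is a description only. In that class *Kdr* stood at 1054.1 CPM (95% Poisson interval 1050.1 to 1058), *Esam* at 742.8, *Egfl7* at 656.8 and *Flt1* at 411.5 CPM. *Eng* (334.5 CPM), *Tek* (316.6), *Cdh5* (299.5), *Flt4* (260.8), *Tie1* (251.98) and *Pecam1* (234.3 CPM) followed. Each was detected in 84.2% (*Tie1*) to 99.01% (*Kdr* and *Egfl7*) of these cells. In neural ectoderm-like cells, taken as a type that should lack endothelial genes, 9 of the 10 were detected in 0% to 8% of 50 cells and *Egfl7* in 58%, at median depths of 672971 and 633395 reads in the 2 classes. A share of cells with *Egfl7* near that value was used as its background. *Egfl7* stood at 26.2 CPM in the neural ectoderm-like cells. Whether this is low expression or reads of overlapping genes was not tested.

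**Figure D1:**
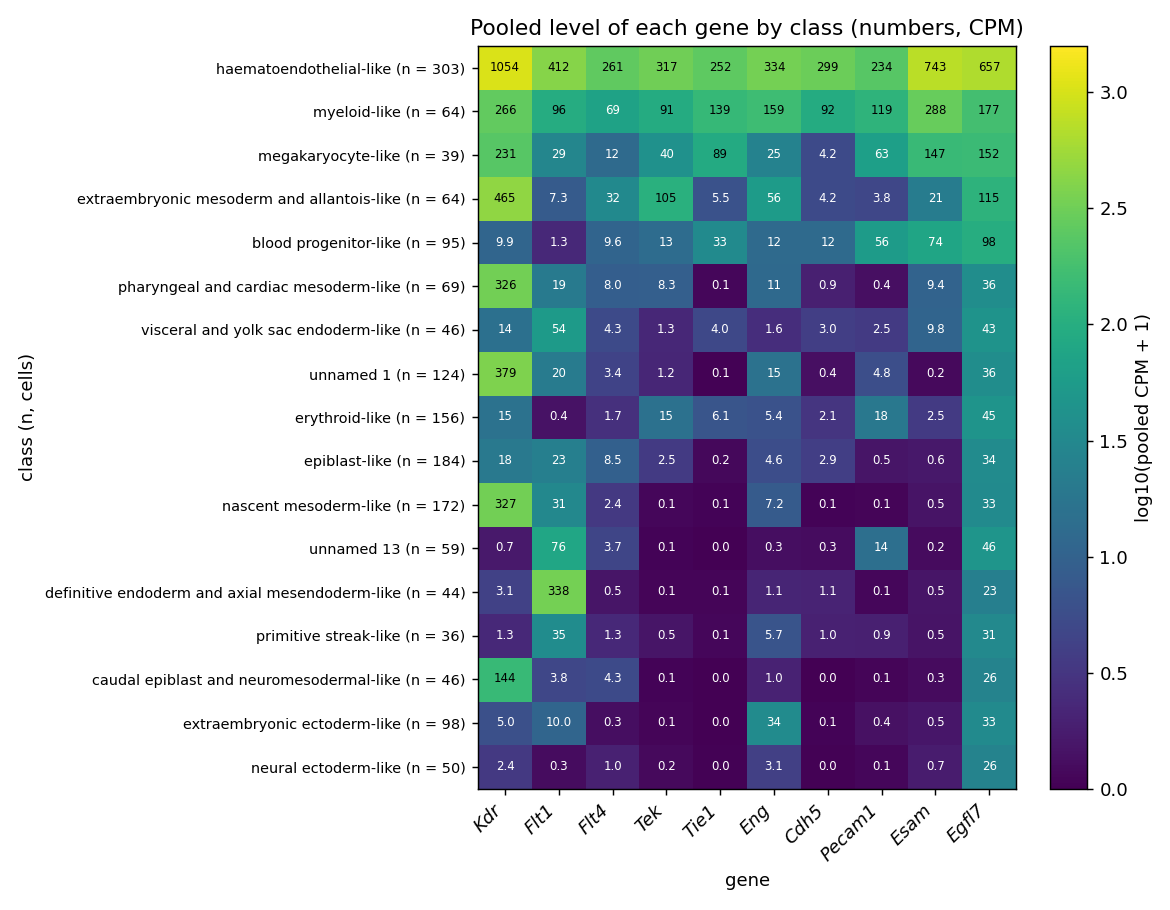
Pooled level of each gene (columns) in each class of cells (rows, with the number of cells); colour is log10 of CPM plus 1 and the printed numbers are CPM. The haematoendothelial-like class is highest in every column, at 1054.1 CPM for *Kdr* and 234.3 CPM for *Pecam1*, while *Kdr* and *Flt1* are also above 300 CPM in classes where the junction genes are near 0.

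With finer clusters the class kept the highest level for 7 of the 10 genes, while *Tie1* (360.1 CPM), *Esam* (973.9 CPM) and *Egfl7* (891.9 CPM) were highest in an unnamed cluster of 52 cells. That cluster, with 51 cells from E8.5, was led by *Lyz2*, *Pla2g16* and *Mpo*. Its closest list was blood progenitor, of which 4 of 9 markers counted. By share of cells the haematoendothelial-like class was also highest for 7 of the 10. *Kdr* was detected in 100% of 39 megakaryocyte-like cells, and *Tie1* and *Pecam1* in 93.8% and 89.1% of 64 myeloid-like cells. The share of all genes highest in the class was not counted for either view. Per kilobase of exon, the scale on which genes can be compared, *Esam* came first in the haematoendothelial-like class at 259.1 CPM per kb, then *Egfl7* at 183.4 and *Kdr* at 116.7. *Eng* (82.6 CPM per kb), *Cdh5* (71.3), *Tek* (67.2), *Tie1* (51.2), *Pecam1* (37.6), *Flt4* (31.7) and *Flt1* (30.5) were lower. Neighbours in this order did not differ beyond their spread: over the 7 plates with at least 5 such cells, *Esam* ranged from 313.8 to 1077 CPM and *Tie1* from 101.3 to 432.6 CPM.

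The 4 clusters of the class carried the genes to different degrees. The cluster led by *Etv2*, 58 cells all from E7.5, held *Kdr* at 774.1 CPM and *Egfl7* at 305.5 CPM, but *Tie1* at 36.3, *Cdh5* at 52.3, *Pecam1* at 52.8 and *Eng* at 84.4 CPM. Of the 12 haematoendothelial markers 3 counted in it, the fewest that allowed a name, against 11 or 12 in the other clusters. The cluster led by *Stab2* and *Lyve1* (57 of 74 cells from E7.5), receptors that bind hyaluronan, had the highest *Flt1* (735.8 CPM), *Eng* (623.4), *Tek* (597.2), *Cdh5* (544.4) and *Pecam1* (362.3 CPM) of the 4. The cluster led by the tight junction gene *Cldn5* (81 of 83 cells from E8.5) had the highest *Kdr* at 1361 CPM. The cluster led by *Ecscr*, an endothelial surface gene, in which the immune genes *Gimap4* and *Lyz2* also led (79 of 88 cells from E8.5), had the highest *Tie1* at 385.7 CPM and *Esam* at 969.9 CPM. Of the variable genes only the 10 were kept out of the clustering.

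*Kdr* (ENSMUSG00000062960, chr5:75932827-75978458, minus strand), the VEGF-A receptor, was widespread outside that class. It stood at 465.4 CPM in extraembryonic mesoderm and allantois-like cells, 327.2 in nascent mesoderm-like, 325.8 in pharyngeal and cardiac mesoderm-like, 266.2 in myeloid-like and 230.8 CPM in megakaryocyte-like cells. An unnamed cluster led by *Spin2c*, *Rgs5* and *Zfp975* held it at 378.9 CPM. In nascent mesoderm-like cells, by contrast, *Cdh5* stood at 0.064, *Pecam1* at 0.092, *Tek* at 0.15 and *Esam* at 0.48 CPM, so *Kdr* was there without the junction genes. Between plates with at least 5 such cells, *Kdr* ranged from 3.83 to 1099 CPM within the cardiac class and from 20.5 to 1415 CPM within the allantois class. The KDR gate of a plate is not in the labels, and its part in these ranges was not tested.

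*Flt1* (ENSMUSG00000029648, chr5:147561604-147726011, minus strand), a second receptor for VEGF-A that can act as a decoy, had another reach. In definitive endoderm and axial mesendoderm-like cells (44 cells, all E7.5) it stood at 337.8 CPM with a read in 84.1% of them, next to 411.5 CPM in the haematoendothelial-like class. *Kdr* stood at 3.15 CPM and *Cdh5*, *Pecam1* and *Esam* at 1.06, 0.12 and 0.50 CPM in those cells. The plates of that class ran from 29.5 to 452.003 CPM of *Flt1*. Visceral and yolk sac endoderm-like cells held 134.7 CPM at E7.5 (26 cells) and 2.58 CPM at E8.5 (20 cells, 17 of them on 1 plate). *Flt4* (ENSMUSG00000020357, chr11:49609263-49652739, plus strand), the receptor for VEGF-C that later marks lymphatic vessels, kept closer to the haematoendothelial-like class, at 69.1 CPM in myeloid-like cells and 32.01 CPM in allantois-like cells, its next highest classes.

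*Tek* (ENSMUSG00000006386, chr4:94739289-94874976, plus strand) encodes TIE2, the receptor for angiopoietins, and *Tie1* (ENSMUSG00000033191, chr4:118471191-118490061, minus strand) a related receptor that works with it. The pair differed outside the endothelium. *Tek* stood at 232.7 CPM in a small cluster led by *Postn* and *Lum* (21 cells of the allantois class), where *Tie1* was at 0.10 CPM, *Kdr* at 97.9 and *Pecam1* at 5.65 CPM. *Tie1* reached 138.97 CPM in myeloid-like, 88.9 in megakaryocyte-like and 33.2 CPM in blood progenitor-like cells. *Eng* (ENSMUSG00000026814, chr2:32646595-32682669, plus strand), or endoglin, a co-receptor for BMP and TGF-beta ligands, stood at 33.8 CPM in 98 extraembryonic ectoderm-like cells with a read in 62.2% of them, where *Cdh5* stood at 0.086 CPM and *Kdr* at 4.98 CPM.

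Among the junction genes, *Cdh5* (ENSMUSG00000031871, chr8:104101625-104144511, plus strand), which encodes VE-cadherin, stood at 91.8 CPM in myeloid-like and 11.8 CPM in blood progenitor-like cells. The second value rested on 22 cells of E8.5 plate 6, which held 55.8 CPM, against 1.499 CPM in 69 cells of plate 2, a level below the 4.22 CPM of megakaryocyte-like cells. In the same order *Tie1* had 123.5 and 12.6 CPM and *Esam* 278.5 and 29.8 CPM in blood progenitor-like cells. *Pecam1* (ENSMUSG00000020717, chr11:106654217-106750628, minus strand), or CD31, which blood cells also carry, stood at 118.9 CPM in myeloid-like, 63.5 in megakaryocyte-like, 55.7 in blood progenitor-like and 18.3 CPM in erythroid-like cells. *Esam* (ENSMUSG00000001946, chr9:37528078-37538319, plus strand), an adhesion molecule of tight junctions and platelets, stood at 287.6, 147.2, 74.4 and 2.52 CPM in the same classes. *Cdh5* was thus at 4.22 CPM in the megakaryocyte-like cells that carried the other junction genes. *Egfl7* (ENSMUSG00000026921, chr2:26580014-26593120, plus strand), a matrix factor that endothelial cells secrete and the host gene of miR-126, stood at 23.1 CPM in definitive endoderm-like cells and 26.1 CPM in caudal epiblast and neuromesodermal-like cells, beside 26.2 CPM in the neural ectoderm-like cells taken as background. Its reads in 61.4% and 58.7% of these cells, and in 63.8% of pharyngeal and cardiac mesoderm-like cells, were near the background share and are not read as expression above it. Its exons overlap those of *Gm20532* on the same strand and, over 64 bases, *Agpat2* on the other, and *Eng* shares 61 bases with *Fpgs* on the other strand, so reads of these genes are uncertain there.

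The myeloid-like class held all 10 genes, the lowest being *Flt4* at 69.1 CPM, in 26 cells from E7.5 and 38 from E8.5. *Kdr* was detected in 98.4% of these 64 cells, *Tie1* in 93.8%, *Pecam1* in 89.1% and *Cdh5* in 87.5%. Of the cells, 20 came from E7.5 lane plate 1 and 37 from E8.5 plate 5. Their median depth was 615163 reads, against 633395 in haematoendothelial-like cells, and whether some wells held 2 cells was not tested. The 39 megakaryocyte-like cells all came from E8.5 plate 5.

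The plates followed the cells they held. In a plate sum, fewer cells of a type and less RNA per cell cannot be told apart, so the share of cells is given beside it. *Tie1* is the clearest case. It had 0 reads on chimera plate 3 and on the plates of embryos 1 and 5, which allows at most 0.066 CPM on the plate of embryo 5 (3 reads of the plate), and 1 read each on those of embryos 2 and 4. On lane plates 1 to 6 it stood at 46.4, 239.1, 42.1, 18.7, 1.02 and 0.32 CPM. On E8.5 plates 1 to 6 it stood at 0.44, 10.1, 239.4, 172.4, 120.3 and 337.4 CPM, with 0 reads on plates 7 and 8. The high plates were those with many haematoendothelial-like cells (E7.5 lane plate 2 and E8.5 plates 3, 4 and 6) and E8.5 plate 5 with its myeloid-like and megakaryocyte-like cells. *Tie1* was detected in 68.5% of the cells of lane plate 2, and in 79.5%, 53.7%, 85.7% and 93.5% on E8.5 plates 3 to 6.

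**Figure D2:**
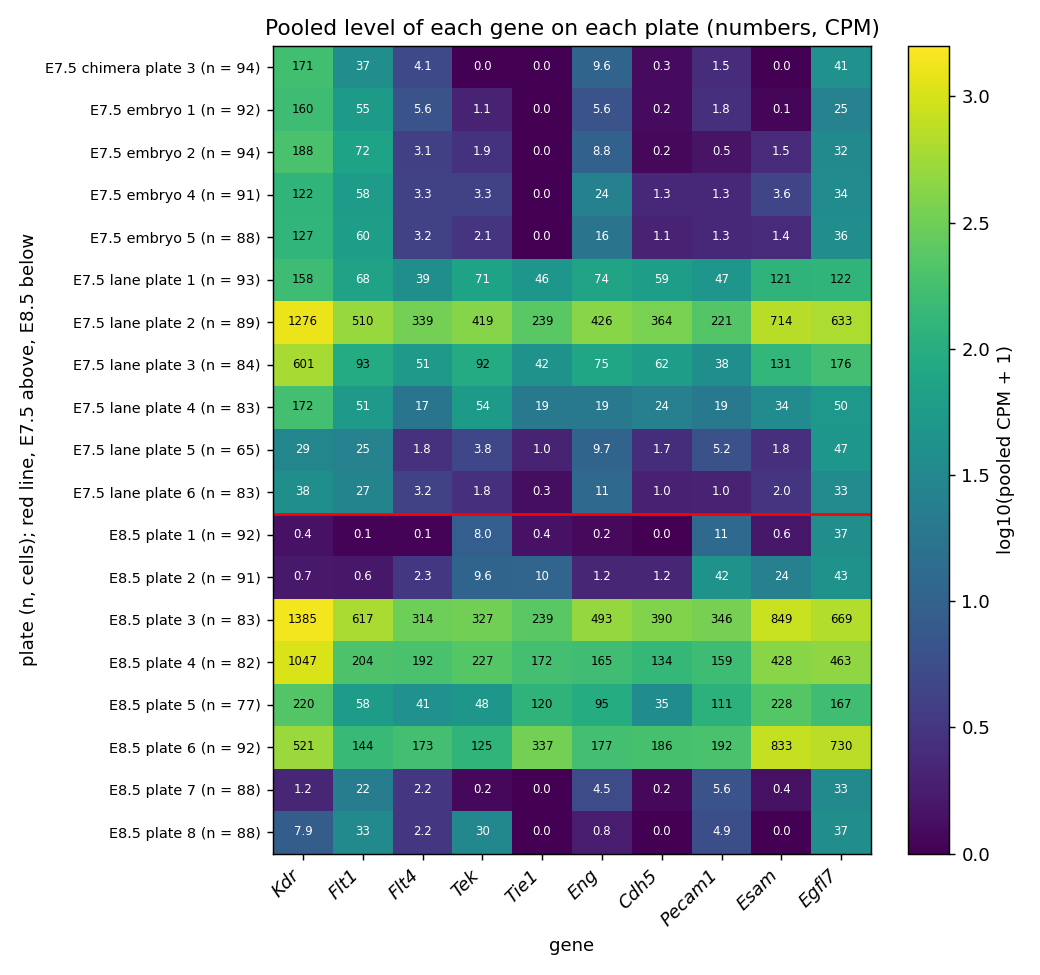
Pooled level of each gene (columns) on each of the 19 plates (rows, with the number of cells; E7.5 above the red line, E8.5 below); colour is log10 of CPM plus 1 and the printed numbers are CPM. Lane plate 2 and E8.5 plates 3, 4 and 6 are bright in every column (lowest value 124.7 CPM), and *Egfl7* is at 25.5 CPM or more on all plates.

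The plates of the 4 numbered embryos gave the spread between embryos. *Kdr* stood at 159.8, 187.95, 121.9 and 126.8 CPM in embryos 1, 2, 4 and 5, *Flt1* at 54.9, 71.6, 57.7 and 60.1 CPM, and *Egfl7* at 25.5, 31.7, 34.4 and 36.01 CPM. *Eng* stood at 5.59, 8.83, 24.4 and 16.2 CPM in the same order. The other 6 genes stood at 5.59 CPM or less in all 4, with *Cdh5* at 0.23, 0.17, 1.29 and 1.06 CPM. These plates thus held *Kdr*, *Flt1* and some *Eng* but little of the junction genes, with *Egfl7* near the 26.2 CPM of neural ectoderm-like cells.

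The E8.5 cells held more of the genes in total, but by less than the spread between plates. The lowest, median and highest plate of *Pecam1* stood at 0.48, 1.77 and 221.3 CPM at E7.5 and at 4.89, 76.7 and 346.2 CPM at E8.5. *Tie1* had 0, 0.32 and 239.1 CPM at E7.5 and 0, 65.2 and 337.4 CPM at E8.5, and *Esam* 0.0096, 2.01 and 713.8 and 0.014, 125.8 and 848.7 CPM. The stages overlapped over most of their range in each of these. *Cdh5* had 0.17, 1.29 and 363.7 CPM at E7.5 and 0, 18.2 and 390.01 CPM at E8.5, and *Tek* 0.0096, 3.33 and 418.8 and 0.19, 38.99 and 327.2 CPM. *Flt1* had 24.9, 57.7 and 509.7 and 0.076, 45.3 and 617.03 CPM. The lowest E8.5 plate was below the lowest E7.5 plate for *Cdh5* and *Flt1*, and above it for *Tek* and *Pecam1*.

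As log2 of pooled E8.5 over E7.5 CPM, each with 1 CPM added, the ratio was 1.60 for *Pecam1*, 1.54 for *Tie1*, 1.47 for *Esam*, 1.07 for *Egfl7*, 0.91 for *Flt4*, 0.82 for *Cdh5*, 0.74 for *Eng*, 0.45 for *Tek*, 0.38 for *Flt1* and 0.09 for *Kdr*. The SD between plates of a stage was 1.66 (*Egfl7*) to 3.72 (*Esam*) on that scale, larger than every ratio. At least 2-fold higher at E8.5 were 4 of the 10 genes, as were 7.02% of the 9887 genes with at least 10 CPM at either stage. For 0 of the 10 did the lowest E8.5 plate exceed the highest E7.5 plate, as it did for 0.394% of those genes. The median ratio of 0.87 (0.08 over all of those genes) was 0.010 when E8.5 plate 3 was left out, and 1.67 when lane plate 2 was. The count of 4 was 8 without lane plate 2, 7 without E8.5 plate 1, and 1 without either plate 3 or plate 6 of E8.5. With single plates left out, the share of all genes ran from 6.49% to 8.56%, the highest without lane plate 2. Without all 4 plates rich in haematoendothelial-like cells the median was -1.20 and the count 0, and the ratio was negative for 9 of the 10 genes, *Pecam1* (0.59) being the exception. That choice left no haematoendothelial-like cells at E8.5 but kept some at E7.5, such as those on lane plate 3. The fall thus follows from which plates were removed and is no finding on stage.

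Within the haematoendothelial-like class the number of such cells on a plate weighs less, although the *Etv2* and *Stab2* clusters made up most of it at E7.5 and those of *Ecscr* and *Cldn5* at E8.5. *Kdr* stood at 1021.5 CPM at E7.5 (813.5 to 1489 over 4 plates) and 1093 CPM at E8.5 (692.001 to 1433 over 3 plates). *Tek* stood at 321.6 CPM (220.8 to 501.7) and 310.7 CPM (166.3 to 410.4). The plates of the stages overlapped widely for both receptors. *Tie1* stood at 167.4 CPM (101.3 to 284.8) at E7.5 and 353.3 CPM (297.4 to 432.6) at E8.5, with no overlap between plates. The share of all genes whose plates separate in this way within the class was not counted. The gap of *Tie1* is therefore not read as a difference of stage. *Pecam1* stood at 154.1 CPM (86.6 to 271.3) and 330.4 CPM (239.1 to 436.5), and *Esam* at 523.4 CPM (313.8 to 877.5) and 1005.4 CPM (772.3 to 1077), where plates overlapped. *Cdh5* stood at 261.8 CPM (148.6 to 443.2) and 344.5 CPM (235.1 to 492.9), again with overlap. The share of these cells with a read of *Tie1* was 68.3% (95% Clopper-Pearson interval 59.4 to 76.3) at E7.5 and 95.5% (91.3 to 98.03) at E8.5.

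Order of onset was described at E7.5 by how many cells carried each gene. *Egfl7* was detected in 80.9% of cells, *Kdr* in 49.9%, *Flt1* in 46.1%, *Eng* in 33.4%, *Flt4* in 23.1%, *Pecam1* in 19.5%, *Tek* in 18.7%, *Esam* in 16.7%, *Cdh5* in 14.96% and *Tie1* in 13.3%. The place of *Egfl7* is not read as early onset, since 58% of neural ectoderm-like cells also held a read of it, and that of *Kdr* can depend on the KDR gate, which was not tested. The order of all 45 pairs was kept when any plate was left out, except that 1 pair changed places without lane plate 1 and 1 without lane plate 3. Of cells with *Tie1*, 94.5% also held *Kdr*, whereas 25.2% of cells with *Kdr* held *Tie1*. Of cells with *Cdh5*, 91.6% held *Kdr*, and 27.5% of *Kdr* cells held *Cdh5*. *Flt1* did not nest in this way, as 56.9% of its cells held *Kdr* and 52.6% of *Kdr* cells held *Flt1*. The cells of a stage are not a time course, so the order is one of shares of cells.

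A second view ordered the cells by how many of 15 other endothelial surface genes (such as *Plvap*, *Cldn5*, *Cd34* and *Ramp2*) they held. In the E7.5 cells with none of these (33.5% of cells), *Kdr* was already detected in 45%, *Flt1* in 29.7% and *Eng* in 17.5%, but *Tie1* and *Esam* in 1.56% and *Cdh5* in 0.94%. With 3 to 5 of them (10.8% of cells), *Kdr* stood at 58.3% and *Eng* at 45.6%, while *Esam* (29.1%), *Cdh5* (22.3%) and *Tie1* (19.4%) were in a minority. In the 38 cells with 6 to 9, *Kdr* and *Egfl7* were in 100%, *Eng* in 97.4%, *Flt4* in 94.7%, *Esam* in 92.1% and *Cdh5* in 84.2%, with *Tie1* lowest at 71.1%. In the 65 cells with 10 or more, each of the 10 genes was in at least 95.4%. The largest step between neighbouring bins lay between 3 to 5 and 6 to 9 other surface genes for all 10. *Etv2* itself was detected in 30.9%, 32.1%, 41.7%, 60.5% and 35.4% of cells over the 5 bins, most often in the last but one.

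At E8.5 *Kdr* was detected in 9.18% of cells with no other surface gene, 29.8% with 1 or 2, 89.9% with 3 to 5 and 100% beyond. It was in 1.09% to 13.6% of the cells on plates 1, 2, 7 and 8 and in 100% on plates 3 to 5. The KDR gate can set these shares, so they are not compared with those at E7.5. *Flt1* was the least frequent of the 10 in cells with 3 to 5 (39.2%) and with 6 to 9 (73.5%). In cells with no other surface gene *Pecam1* was detected in 26.1% and *Tek* in 17.4%, against 7.73% for *Esam* and 1.45% for *Cdh5*. All of these genes were read in the same libraries at the same thinned depth, so the bins share their counting error.

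**Figure D3:**
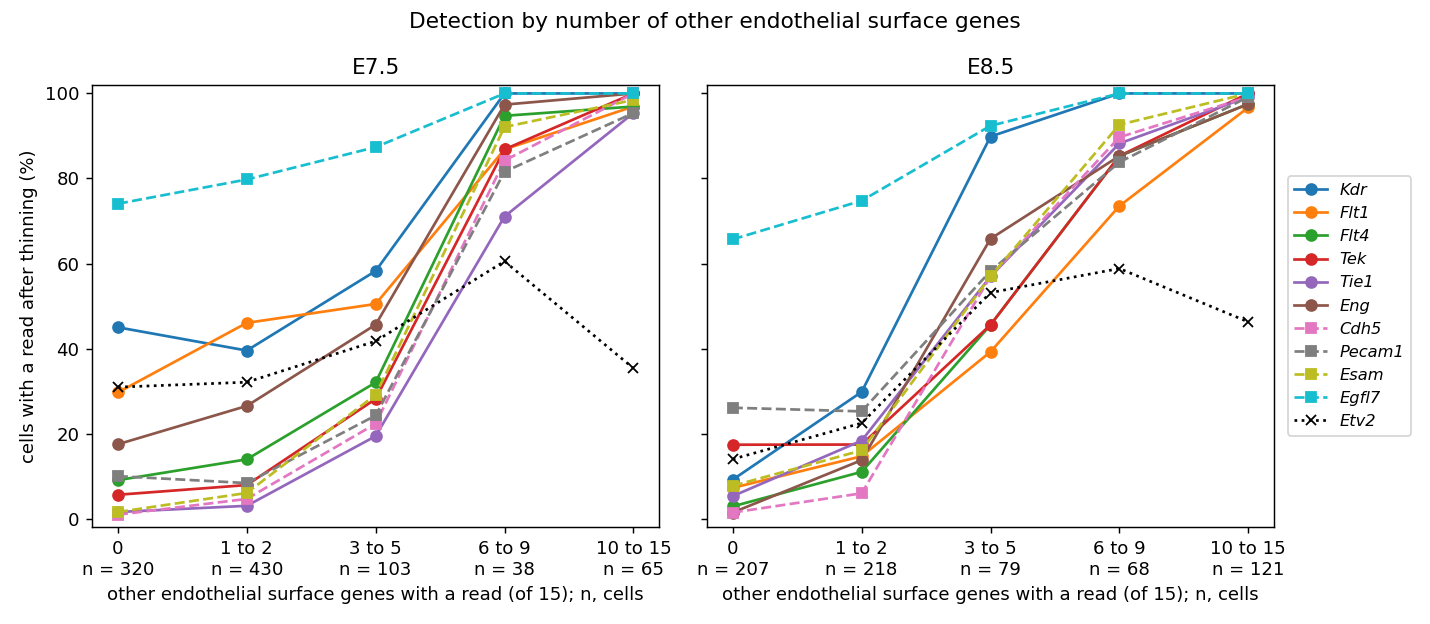
Share of cells with a read of each gene (y axis, percent, after thinning to 100000 reads) by the number of 15 other endothelial surface genes with a read in the cell (x axis, with the number of cells), at E7.5 (left) and E8.5 (right). At E7.5 *Kdr*, *Flt1* and *Egfl7* start at 29.7% or more, the other genes are below 20% in cells with none, and *Etv2* (dotted) peaks at 60.5% and stands at 35.4% in the last bin.

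Most cells held either few or all of the genes. At E7.5, 32.7% of cells held 2 of the 10, 1.46% held 7 and 8.58% held all 10. At E8.5, 23.7% held 1, 3.32% held 7 and 20.8% held all 10. Of the cells with a single gene, that gene was *Egfl7* for 60.1% (E7.5) or 75.6% (E8.5) of them and *Flt1* for 16.4% or 3.66%. Cells with *Egfl7* alone cannot be told apart from the background of that gene. *Cdh5* was the single gene in 0 cells, and *Tie1* in 1.

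The level of *Etv2* was then used to order cells, as Etv2-negative (0 reads), Etv2-low (below 100 CPM) and Etv2-high (from 100 CPM). The Etv2-high cells numbered 62 at E7.5 and 60 at E8.5. Etv2-negative cells made up 54.8% and 62.6% of the stages. Negative, low and high cells held on average 2.76, 3.46 and 4.85 of the 10 genes at E7.5 and 3.40, 6 and 6.72 at E8.5, at median depths of 679297, 845090 and 622632 reads at E7.5 and 534476, 630689 and 588010 at E8.5. *Kdr* stood at 222.4, 338.9 and 947.96 CPM in E7.5 negative, low and high cells, and was detected in 37.4, 59.5 and 98.4% of them. At E8.5 it stood at 192.5, 443.1 and 1002.4 CPM. *Egfl7* stood at 112.3, 104.8 and 240.3 CPM at E7.5 and at 147.95, 349.3 and 597.2 CPM at E8.5. Pooled over plates, the receptor and the secreted factor were thus highest in the Etv2-high cells at both stages. The KDR gate can set the pooled *Kdr* levels, which was not tested. E8.5 plates 1, 7 and 8 held 0 Etv2-high cells and *Kdr* at 0.45, 1.19 and 7.87 CPM. Plates 3 and 4 held 23 Etv2-high cells each and *Kdr* at 1384.9 and 1046.8 CPM. Within plates the order of *Kdr* was mixed, as given below.

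The junction genes and *Tie1* had no such order at E7.5. *Tie1* stood at 34.7, 30.2 and 27.3 CPM in negative, low and high cells and *Cdh5* at 52.2, 41.7 and 39.2 CPM. *Pecam1* stood at 34.7, 26.8 and 29.3 CPM and *Esam* at 97.2, 89.4 and 98.1 CPM. More of the Etv2-high cells nonetheless held a read of each (*Tie1* 20.97% against 11.5% of negative cells, *Cdh5* 27.4% against 12.02%). *Eng* stood at 65.3 CPM in negative and 124.9 CPM in high cells, *Flt4* at 42.7 and 82.1 CPM, *Tek* at 63.6 and 86.4 CPM, and *Flt1* at 103.4 and 111.3 CPM. At least 2-fold higher in Etv2-high than in Etv2-negative cells were 2 of the 10 genes, *Kdr* (4.26-fold) and *Egfl7* (2.14-fold), as were 3.57% of all 9668 genes with at least 10 CPM in either set. The median ratio of the 10 was 1.22, against 1.02 over those genes.

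At E8.5, 5 of the 10 genes were at least 2-fold higher in Etv2-high than in Etv2-negative cells: *Kdr* (5.21-fold), *Flt4* (4.55), *Egfl7* (4.04), *Eng* (2.33) and *Esam* (2.23). Of the 9783 genes with at least 10 CPM, 5.58% were. The ratio of *Pecam1* was 1.04. *Pecam1*, *Tie1*, *Cdh5*, *Tek*, *Eng* and *Esam* were highest in Etv2-low cells, at 158.4, 142.6, 126.4, 122.2, 170.5 and 418.7 CPM, against 151.2 CPM of *Eng* and 383.6 CPM of *Esam* in Etv2-high cells. These counts moved with single plates. At E7.5 the count was 1 without lane plate 2, 1 without lane plate 4 and 5 without lane plate 3. At E8.5 it was 10 without plate 3, 8 without plate 4 and 3 when plate 1, plate 7 or plate 8 was left out alone. The share of all genes moved too. It ran from 3.23% to 4.98% at E7.5, the highest without lane plate 3. At E8.5 it ran from 2.95%, without plate 1, to 7.59%, without plate 6.

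Within plates the pooled level was mostly lower in the Etv2-high cells, and the share of cells with a read was higher in them for 0 to 7 of the 10 genes. At E7.5, 3 plates held at least 5 Etv2-high and 5 Etv2-negative cells: *Kdr* was higher in the high cells on 2 of them and *Eng* on 1, and the other 8 genes on 0. On chimera plate 3, with 6 high cells, *Tie1* and *Esam* had 0 reads in both sets. *Tek*, *Cdh5* and *Pecam1* were at 0.17 CPM or less there, too low for a direction. How many of all genes were higher or lower on the same plates was not counted at either stage. On lane plate 2, *Cdh5* stood at 554.4 and 110.5 CPM in 38 negative and 26 high cells, *Tie1* at 345.8 and 68.2 CPM, and *Esam* at 929.4 and 280.01 CPM. On E8.5 plate 3, with 33 negative and 23 high cells, *Cdh5* stood at 561.3 and 111.1 CPM, *Tie1* at 385.5 and 80.2 CPM and *Pecam1* at 512.3 and 64.6 CPM. *Kdr* (1431 and 1345 CPM) and *Egfl7* (594.5 and 583.9 CPM) differed less on that plate. Over the 3 such E8.5 plates, *Egfl7* was higher in the high cells on 2, *Kdr*, *Flt4*, *Eng* and *Cdh5* on 1 each, and the other 5 genes on 0. By share of cells with a read, the high cells were above the negative ones for 4 of the 10 genes on chimera plate 3, 6 on lane plate 3 and 0 on lane plate 2, and for 0, 7 and 2 genes on E8.5 plates 3, 4 and 6. On lane plate 3, for example, *Flt4* was in 41.7% of 12 high and 35.5% of 31 negative cells, at 23.5 and 82.2 CPM.

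Inside the haematoendothelial-like class the levels of several genes were also lower in the Etv2-high cells. At E7.5 (47 negative, 51 low and 28 high cells) *Cdh5* stood at 384.7, 194.8 and 99.8 CPM, *Tie1* at 236.9, 133.5 and 61.3 CPM and *Pecam1* at 219.4, 117.4 and 71.1 CPM in negative, low and high cells. *Tie1* was detected in 87.2, 68.6 and 35.7% of them. *Kdr* stood at 1194, 809.4 and 1209 CPM and *Egfl7* at 622.7, 395.8 and 580.01 CPM, so these 2 genes were lowest in the Etv2-low cells. At E8.5 (77, 73 and 27 cells) *Pecam1* stood at 394.9, 342.4 and 148.6 CPM, *Tie1* at 448.8, 327.03 and 205.1 CPM, *Cdh5* at 421.7, 328.7 and 210.5 CPM and *Eng* at 421.3, 416.4 and 184.98 CPM. *Flt4* (294.7, 289.7 and 369.6 CPM) and *Egfl7* (783.3, 791.3 and 1028.9 CPM) were highest in the Etv2-high cells. At least 2-fold higher in the high cells were 0 of the 10 genes at either stage, as were 12.2% of all genes with at least 10 CPM in either set of the class at E7.5 and 6.42% at E8.5. At least 2-fold lower were 4 of the 10 at E7.5 and 5 at E8.5, beside 14.8% and 10.8% of those genes. The median ratio of high over negative cells was 0.51 at E7.5 and 0.57 at E8.5, against 1.02 and 1.008 over those genes. The mean number of the 10 genes per cell was 9.30, 8.25 and 7.07 at E7.5. *Etv2* helped to form and to name these clusters, and the 10 genes did not. Genes correlated with the 10, such as *Sox18* (0.86), were among the naming markers. At E7.5 the class pools the cluster led by *Etv2*, low in *Tie1*, *Cdh5* and *Pecam1*, with the other clusters. The mix of clusters at each *Etv2* level was not counted, and its part in these levels and counts was not tested.

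**Figure D4:**
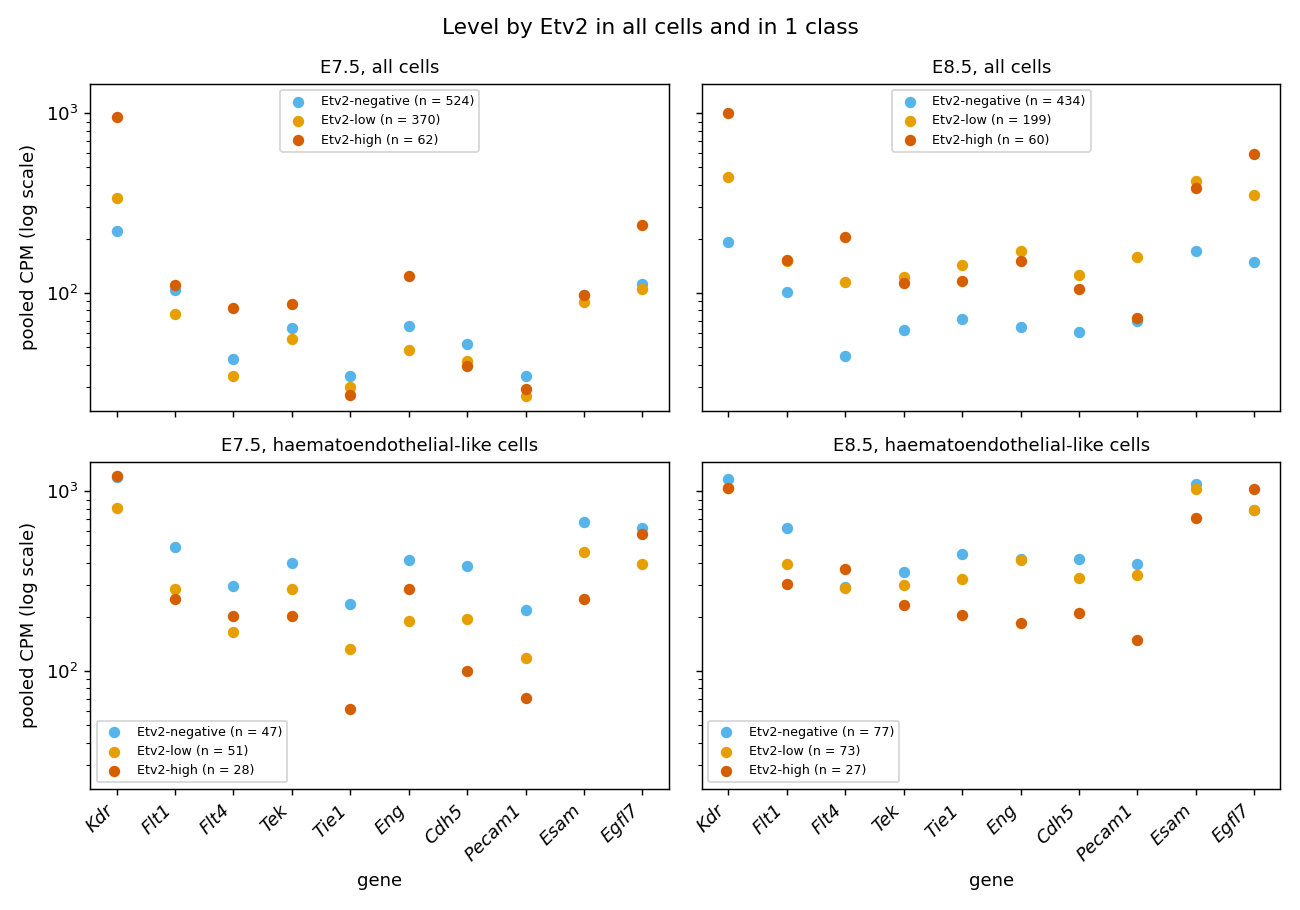
Pooled level of each gene (y axis, CPM on a log scale) in Etv2-negative, Etv2-low and Etv2-high cells, over all cells (top) and in the haematoendothelial-like class (bottom), at E7.5 (left) and E8.5 (right); legends give the number of cells. Over all cells *Kdr* and *Egfl7* are highest in the Etv2-high cells, whereas within the class *Tie1*, *Cdh5* and *Pecam1* are lowest in them at both stages.

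*Fli1*, another ETS factor, was set beside *Etv2*. Cells were split into those with a read of neither gene, of *Etv2* only, of both, or of *Fli1* only. The split used all reads of a cell, without thinning, whereas detection of the endothelial genes was taken after thinning. A deeper cell can more easily hold a read of either factor, and the part of depth in the groups was not tested. At E7.5 the groups held 38.8%, 26.6%, 18.6% and 16.004% of cells. *Kdr* was detected in 24.8%, 49.6%, 87.1% and 67.97% of the groups in that order. *Tie1* was detected in 0.81%, 0.79%, 36.5% and 37.3%, *Cdh5* in 1.62%, 1.97%, 42.1% and 37.3%, and *Esam* in 2.70%, 3.94%, 44.4% and 39.9%. Pooled over plates, cells with *Etv2* alone thus carried *Kdr*, at 239.6 CPM against 48.3 CPM with neither. In the cells with *Etv2* alone *Tie1*, *Cdh5*, *Pecam1*, *Tek* and *Esam* were at 0.83 CPM or less. *Flt1* stood at 32.8 CPM with *Etv2* alone and 50.8 CPM with neither. In cells with *Fli1* only, *Cdh5* stood at 147.1 CPM and *Eng* at 170.4 CPM.

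The same split at E8.5 had 47 cells with *Etv2* only. *Kdr* was detected in 13.2%, 34.04%, 81.6% and 64.4% of cells, in the order used for E7.5, with a 95% interval of 20.9 to 49.3 for those 47. *Tie1* was detected in 2.47%, 6.38%, 70.8% and 61.3%, *Pecam1* in 9.47%, 17.02%, 75.5% and 73.8% and *Esam* in 3.29%, 4.26%, 74.1% and 59.2%. Pooled over plates, both stages thus had *Kdr* in a larger share of cells with *Etv2* alone than with neither gene, and the junction genes mainly in cells with *Fli1*. The KDR gates of the pooled plates are not in the labels. E8.5 plates 1, 7 and 8 held a read of *Etv2* in 8.70% to 14.8% of cells and *Kdr* in 1.09% to 13.6%. Plates 3 to 6 held *Etv2* in 51.9% to 65.9% and *Kdr* in 90.2% to 100%. The part of the gate was not tested at either stage, and the split was not made within plates. Across all 1649 cells, on log2 of CPM plus 1, the Pearson correlation with *Fli1* ran from 0.42 (*Flt1*) to 0.77 (*Esam*) and with *Etv2* from 0.11 (*Pecam1*) to 0.43 (*Kdr*). These describe cells that share plates, libraries and depth, and *Fli1* and *Etv2* were both among the markers of the haematoendothelial-like class.

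**Figure D5:**
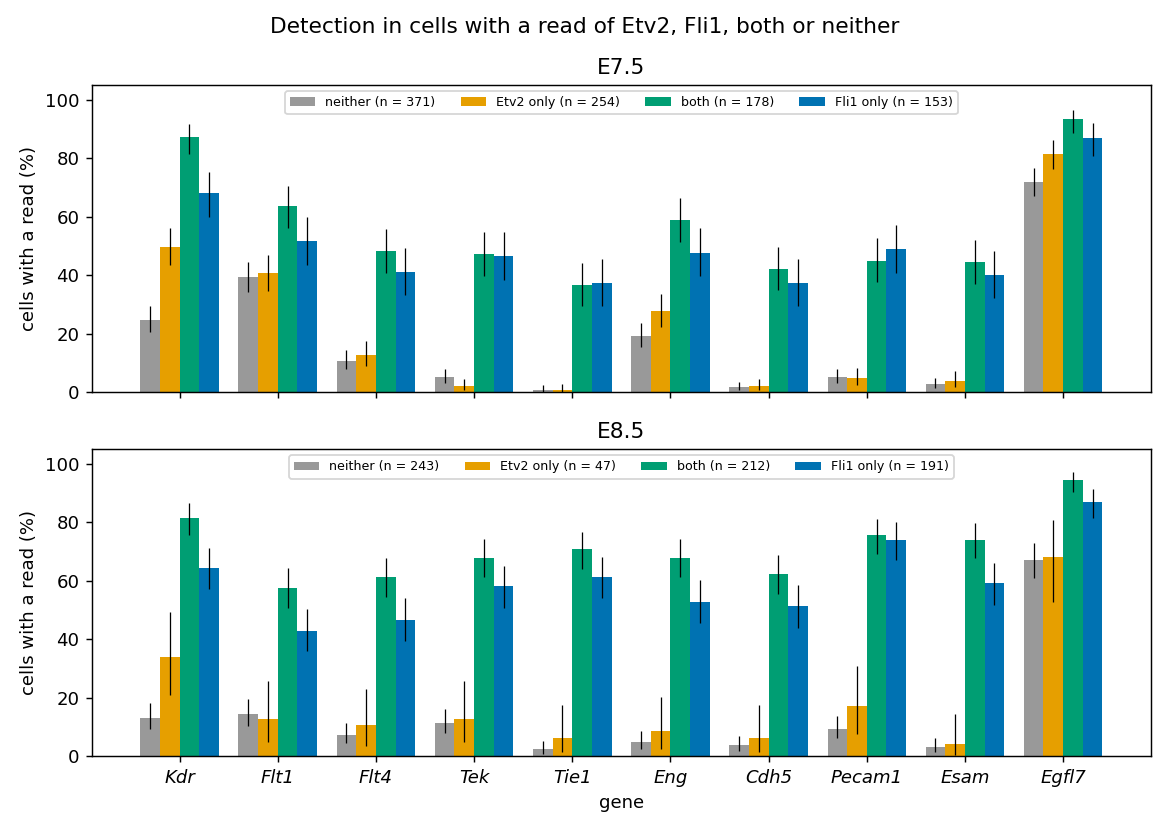
Share of cells with a read of each gene (y axis, percent, after thinning) among cells with a read of neither *Etv2* nor *Fli1*, of *Etv2* only, of both or of *Fli1* only, at E7.5 (top) and E8.5 (bottom); error bars are exact 95% binomial intervals and legends give the number of cells. At E7.5 *Kdr* is in 49.6% of cells with *Etv2* only against 24.8% with neither, whereas *Tie1* is in 0.79% and 0.81%.

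Among the 10 genes, *Tie1* and *Esam* had the highest Pearson correlation across cells (0.88), followed by *Cdh5* and *Esam* (0.87) and *Pecam1* and *Tie1* (0.82). *Kdr* was at most 0.61 (with *Esam*) and *Egfl7* at most 0.67 (also with *Esam*). *Flt1* was the gene least correlated with 8 of the other 9. Outside the 10, the genes closest to their mean level were *Sox18* (0.86), a SOX factor of endothelium, *Rhoj* (0.85), a small GTPase, *Ecscr* (0.85), *Igf1* (0.84), a growth factor, and *Calcrl* (0.84), part of the adrenomedullin receptor. These values are over 1649 cells from 19 plates that share library and depth.

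Other genes of the pathways were counted from lists, which were chosen with earlier results of these data known. Of 10 ligands, 3 reached 10 CPM at either stage: *Vegfb* (19.7 CPM at E7.5 and 19.8 CPM at E8.5), *Tgfb1* (6.28 and 15.9 CPM) and *Angpt1* (8.46 and 11.9 CPM). *Vegfa*, the ligand of *Kdr*, stood at 4.86 and 4.53 CPM. All 7 co-receptors and partners reached 10 CPM, with the VEGF co-receptors *Nrp1* (99.5 and 142.6 CPM) and *Nrp2* (66.3 and 97.04 CPM) highest. At each stage 2 of the 7 were at least 2-fold higher in Etv2-high than in Etv2-negative cells, *Nrp1* (2.23-fold) and *Nrp2* (3.93-fold) at E7.5 and *Nrp2* (2.94) and *Acvrl1* (2.96), a BMP receptor that works with endoglin, at E8.5.

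Of the endothelial transcription factors, 7 of 11 with at least 10 CPM in either set were 2-fold higher in Etv2-high cells at E7.5 and 10 of 12 at E8.5. Over all genes tested, 3.57% were 2-fold higher at E7.5 and 5.58% at E8.5. At E7.5 *Tal1* was 2.50-fold and *Lmo2*, its partner in blood and endothelial progenitors, 2.16-fold higher, while *Fli1* (1.77) and *Ets1* (1.53) were below 2-fold. The 2 factors at least 2-fold lower at E7.5, *Mef2c* (0.23) and *Sox17* (0.39), were named after their values were seen. Of the other endothelial surface genes, 0 of 12 were 2-fold higher and 4 were 2-fold lower at E7.5, among them *Cldn5* (0.41) and the sialomucin gene *Cd34* (0.44). *Plvap* (0.92) and *Ramp2* (1.14) lay near 1. At E8.5, 6 of 13 surface genes were 2-fold higher, *Cldn5* (3.57) among them, and 1 was lower, *Clec14a* (0.090), named after its value was seen. The median ratio at E7.5 was 0.77 for the surface genes and 2.1 for the factors, beside 1.02 over all genes tested. Of those genes, 6.83% were at least 2-fold lower in Etv2-high cells at E7.5 and 7.77% at E8.5.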

How the data were processed

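RNA was measured by Smart-seq2 in single cells sorted into 96-well plates. The table the authors deposited holds raw counts of reads for each gene in each cell, from reads aligned to GRCm38 with HISAT2 2.1.0 and counted with featureCounts (per the submitters' processing notes). Strand and multi-mapping settings are not given in the sources used here. 0 columns were left without a sample. Gene positions came from a GENCODE annotation of the same build.

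The members and lists were chosen with earlier results of these data known. Named are the 10 genes, up to 5 genes a list by level and the 5 genes with the highest correlation with the 10. Cells with at least 100000 reads were kept, 956 from E7.5 and 693 from E8.5. Reads were summed per plate, stage, class or *Etv2* level and divided by all reads (CPM), and log2 ratios had 1 CPM added to each level, so that changes of low genes come out too small. Background shares cover genes with at least 10 CPM in either set. The Etv2-negative, Etv2-low and Etv2-high cells numbered 524, 370 and 62 at E7.5 and 434, 199 and 60 at E8.5. Clusters came from scanpy 1.11.5 (2000 variable genes without the 10, 30 principal components, 15 neighbours, Leiden resolution 1). A name needed at least 3 markers with a read in at least 25% of the cells and at least 2-fold the level of other cells, and the haematoendothelial-like class held 303 cells (126 from E7.5 and 177 from E8.5). Plate ranges cover plates with at least 5 cells of a class. No doublet caller was run, as single cells had been sorted. Intervals are exact 95% Poisson (CPM) or Clopper-Pearson (shares of cells) intervals from scipy 1.17.1, and a count of 0 allows 3 reads of the total. They cover counting error alone, because reads made by amplification are not separate molecules. Scripts were tested on simulated data. Alternatives changed the limits on cells, the library size (TMM from edgeR 4.0.16, size factors from DESeq2 1.42.0), pooling, pseudocount, detection rule, *Etv2* limit and resolution, or left out plates.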

Additional observations from a re-analysis of the deposited data

Results flagged for a closer look

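Among the 4 plates of numbered E7.5 embryos, each of the 10 genes was checked for a plate far from the other 3, and 2 values stood apart. The level of *Flt4*, the VEGF-C receptor, was 5.59 CPM in embryo 1 (95% Poisson interval 5.05 to 6.18), against 3.07, 3.30 and 3.24 CPM in embryos 2, 4 and 5. *Flt4* was detected in 19.6% of the cells of embryo 1 and in 14.9%, 7.69% and 9.09% of the others. The share of cells with a read of *Tie1* was 1.10% in embryo 4, from 1 of 91 cells, and 0 in the other 3, whose exact upper limits were 3.93%, 3.85% and 4.11%. With 3 plates at 0 any single cell with a read stands apart in this way, and 1.10% lies below those limits, so the *Tie1* value is no difference between embryos. Chance flags about 1 in 20 groups of values under this rule.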

How the results depend on the processing

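Limits on mitochondrial, ribosomal and total reads, leaving out the most-read cells or haemoglobin, TMM, DESeq2 size factors, mean CPM of plates, both other pseudocounts and Etv2-high from 50 CPM kept the counts of the 10 genes within 1.5 times their values. Without the 4 plates richest in haematoendothelial-like cells (an alternative chosen after seeing the data, as was the one within the class), 0 of the 10 genes were 2-fold higher at E8.5, the median ratio was -1.20, and 9 of the 10 ratios turned negative on the log2 scale: *Kdr* (-2.98), *Cdh5* (-2.16), *Flt1* (-1.70), *Flt4* (-1.50), *Eng* (-1.35), *Tek* (-1.06), *Esam* (-0.58), *Egfl7* (-0.55) and *Tie1* (-0.046), but not *Pecam1* (0.59). Without E8.5 plate 3 alone, 5 did: *Flt1* (-0.79), *Kdr* (-0.71), *Eng* (-0.28), *Tek* (-0.26) and *Cdh5* (-0.15). Leaving out the 4 plates removed every haematoendothelial-like cell of E8.5 but only part of those of E7.5, so lower ratios were built into that alternative. The count in Etv2-high cells at E7.5 was 4 by mean CPM of cells, 4 with Etv2-high from 200 CPM, 1 without those 4 plates and 0 within the haematoendothelial-like class. At E8.5 it was 3 by mean CPM and 0 within the class, and without the 4 plates too few Etv2-high cells were left for a value. The median share of Etv2-high cells with a read (63.3% at E8.5) was 72.5% without thinning and 53.3% when 3 reads were required. Leaving out each plate in turn gave 0.010 to 1.67 for the median stage ratio, 1 to 8 for its count, 1 to 5 (E7.5) and 3 to 10 (E8.5) for the counts by *Etv2*, 20.8% to 43.8% (E7.5) and 62.2% to 64.7% (E8.5) for the median detection share, and 44 to 45 ordered pairs. The share of all genes beside the stage count ran from 6.49% to 8.56%. Beside the counts by *Etv2* it ran from 3.23% to 4.98% (E7.5) and 2.95% to 7.59% (E8.5). Of the other stage ratios of single genes under these settings, that of *Kdr* (0.09) turned negative without lane plate 1 (-0.023) or E8.5 plate 4 (-0.20) or 6 (-0.030), and the rest kept their sign. No paired analysis was possible because no result came from a test, and for the stages no plates are paired. Etv2-high and Etv2-negative cells of the same plates were compared by their values alone, given above. Depth limited the lowest genes: 0 reads on a plate allow 0.0176 to 0.191 CPM.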
